A study of Mus musculus with 12 samples.

Results

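Jchain, Pigr, Mzb1, Cd79a, Cd79b and Ms4a1 are genes of antibody-secreting cells, of B cells and of the transport of IgA. They were taken by gene symbol, and all 6 were among the 16821 genes listed for liver. They were selected on earlier results for the FPKM of these same mice. In the comparison of trained with sedentary mice Jchain had the smallest p of all genes tested, so the group differences of the 6 genes are given as a description, without a test. The data were RNA sequencing libraries of single livers from 12 adult C57BL/6J males. The Con group (6 mice) was sedentary. The Exe group (6 mice) was trained over 6 weeks by moderate treadmill running, on 5 days of each week and for 60 min a session. Animals of both groups arrived at 8 weeks of age and had 1 week to settle, and saline perfusion preceded removal of the liver within 24 h of the final session. Expression is given in FPKM, fragment counts scaled for transcript length and for the size of the library, and so can be compared between genes.

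Plasma cells join antibody units into polymers with the J chain, the small protein encoded by Jchain, which links the units of dimeric IgA and of pentameric IgM. The polymeric Ig receptor, encoded by Pigr, binds the J chain-containing polymer on the basal side of an epithelial cell, carries it across and releases it with a piece of the receptor attached. In rodents hepatocytes carry this receptor and move polymeric IgA from blood into bile, while B cells and plasma cells are few in healthy liver. Mzb1 encodes a chaperone cofactor of the endoplasmic reticulum that helps antibody assembly in marginal zone B cells and plasma cells. Cd79a and Cd79b encode the signalling chains of the B cell receptor, and Ms4a1 encodes CD20, a membrane protein of B cells that plasma cells lose.

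Promoters of Jchain, Pigr and Cd79a were taken from RefSeq (GRCm38.p6) by gene ID, and are shown because they are the control regions of the transcripts compared here. Each holds the 250 bases before the annotated gene start, written in the direction of the gene. They lie at chr5:88527898-88528147 on the minus strand for Jchain, chr1:130826434-130826683 on the plus strand for Pigr, and chr7:24897247-24897496 on the plus strand for Cd79a. Capitals mark the E-box CACGTG, to which USF factors are known to bind, in Pigr, and the Ets-type motif CAGGAAGT in Cd79a.
Jchain: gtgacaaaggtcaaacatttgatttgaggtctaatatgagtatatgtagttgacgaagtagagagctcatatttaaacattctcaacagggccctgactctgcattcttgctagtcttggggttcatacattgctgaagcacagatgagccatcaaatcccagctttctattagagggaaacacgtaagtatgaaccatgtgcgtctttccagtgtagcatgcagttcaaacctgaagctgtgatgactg
Pigr: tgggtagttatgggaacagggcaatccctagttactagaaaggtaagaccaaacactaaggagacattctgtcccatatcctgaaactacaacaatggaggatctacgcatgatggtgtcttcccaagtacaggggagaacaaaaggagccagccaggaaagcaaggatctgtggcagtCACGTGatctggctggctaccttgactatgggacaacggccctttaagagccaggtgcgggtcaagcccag
Cd79a: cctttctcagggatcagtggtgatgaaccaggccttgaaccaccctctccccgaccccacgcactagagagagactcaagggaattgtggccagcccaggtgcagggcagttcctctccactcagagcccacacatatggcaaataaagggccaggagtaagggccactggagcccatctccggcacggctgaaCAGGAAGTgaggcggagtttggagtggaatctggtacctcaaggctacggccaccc
Both strands were searched for CACGTG, CAGGAAGT, the octamer ATTTGCAT and the interferon response core, which is GAAA, any 2 bases and GAAA again. CACGTG lay 71 to 66 bases before the start of Pigr and occurred in 6.02% of 32851 promoters of this length. CAGGAAGT lay 56 to 49 bases before the start of Cd79a and occurred in 2.69%. ATTTGCAT occurred in 1.6% of all promoters and the interferon response core in 2.98%, and neither was in these 3 windows. None of the 4 motifs was in the Jchain window. The GC content was 42.0% in Jchain, 50.4% in Pigr and 58.8% in Cd79a. Mzb1, Cd79b and Ms4a1 are named only.

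The 6 genes spanned a wide range of levels. Pigr ranked 276 of 16821 by mean FPKM, whereas Cd79a ranked 9140, Jchain 9741, Cd79b 10384, Mzb1 11143 and Ms4a1 12458. The order of the means was Pigr, Cd79a, Jchain, Cd79b, Mzb1 and Ms4a1 in both groups. Pigr stood above the other 5 genes in every mouse. Among those 5 genes, neighbours in the order overlapped in both groups, except Mzb1 and Ms4a1, which overlapped in Con mice alone. Low FPKM rest on few fragments. From genes whose FPKM moved in steps, 1 fragment was estimated to be worth a median of 0.0931 FPKM per kilobase of transcript (quartiles 0.0837 and 0.113, 14 genes). By this approximate measure a mouse gave a median of 21 fragments for Jchain, 25 for Cd79a, 13 for Cd79b, and 5 each for Mzb1 and Ms4a1, against 13958 for Pigr.

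Jchain was low in all livers and had about 2 times the mean FPKM in Exe mice. In Con mice it was listed at 0.85, 0.56, 0.92, 0.71, 1.47 and 0.70 FPKM in mice 1 to 6. In Exe mice it was listed at 2.39, 1.66, 1.34, 1.55, 1.81 and 1.95 FPKM. Con 5 was the highest Con mouse, and Exe 3 was the only Exe mouse below it, so the groups overlapped by this pair. The mean was 0.868 ± 0.320 FPKM in the Con and 1.78 ± 0.364 FPKM in the Exe group (SD, n = 6 each, as in all values here), a ratio of 2.05. The ratio was between 1.91 without Exe 1 and 2.38 without Con 5. Of 10238 genes with a mean of at least 1 FPKM, 5 (0.0488%) had a ratio over 2, namely Cyp4a14 (5.16), Cyp4a10 (2.32), Fmr1nb (2.18), Jchain and Tgtp1 (2.03). In 137 of 10241 genes tested (1.34%), 5 or 6 Exe mice lay above every Con mouse, as for Jchain. Jchain was selected on results of these same mice, and its mean reached 1 FPKM through the Exe group. Its place in both counts is therefore a description and lends no support to a difference. The groups did not overlap at all in 0.254% of the genes tested, and they overlapped in each of the 6 genes described here.

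On the scale of log2(FPKM + 1) the Jchain difference was 0.58 (SE 0.11). Over all genes, with limma and Benjamini-Hochberg adjustment, 0 of the 10241 genes tested passed an adjusted p of 0.05 (0.0%), and 636 passed an unadjusted p of 0.05 (6.21%), with 4.27% of all genes tested higher and 1.94% lower in Exe mice. Without Exe 2 the 636 genes became 418. Of the 636 genes 68.7% were higher. This share was 56.4% after quantile normalization and 88.1% after scaling to the same summed FPKM. Genes entered this test with at least 1 FPKM in at least 6 mice. Jchain passed with 6 Exe mice and 1 Con mouse, so it entered through the group in which it was higher. Pigr and Cd79a also passed this filter, and Mzb1, Cd79b and Ms4a1 did not. Counting error alone, from the estimated fragments, would give a coefficient of variation of 27.7% in Con and 19.4% in Exe mice, against 36.9% and 20.4% observed for Jchain.

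**Figure D1:**
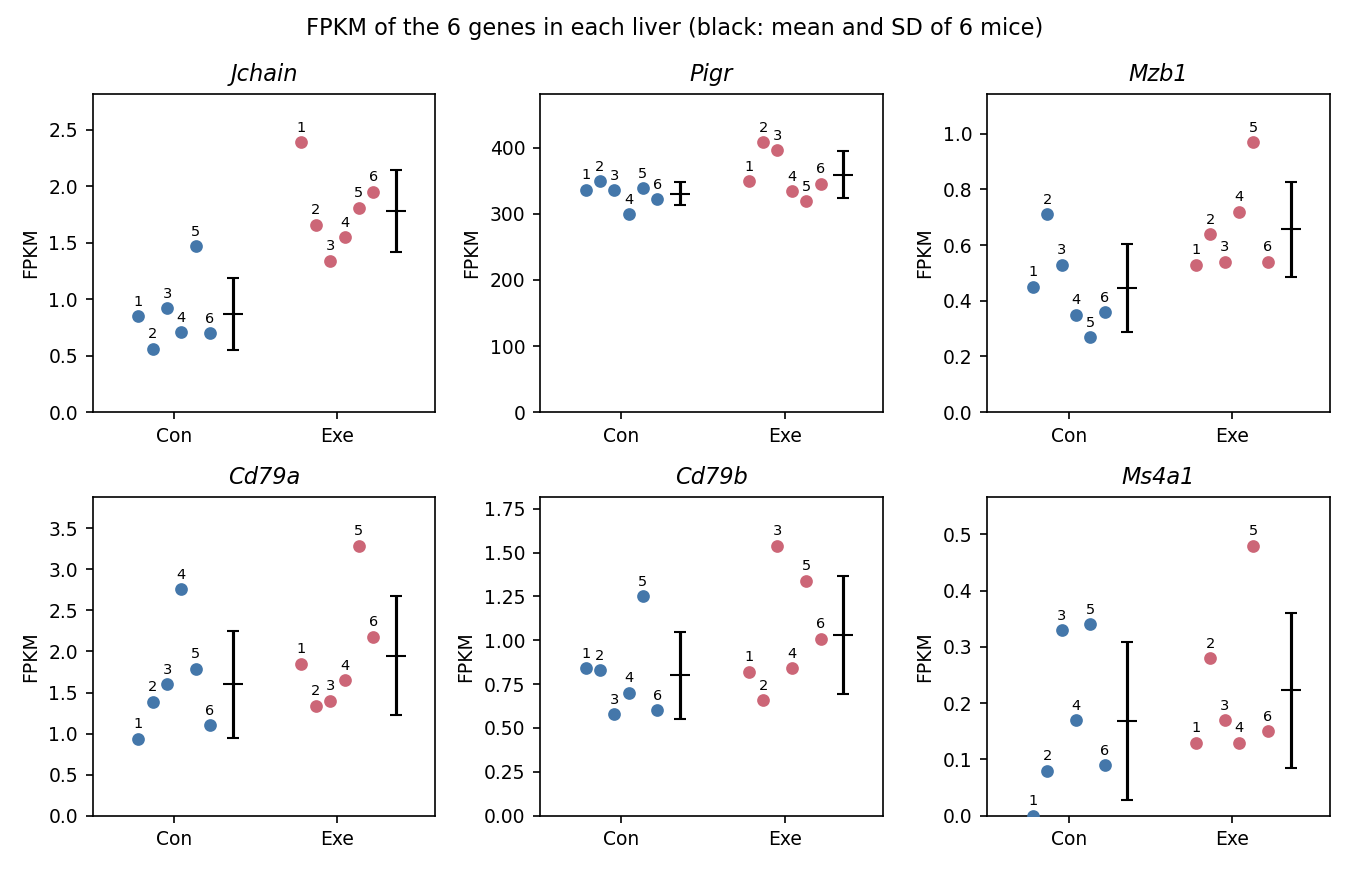
FPKM of the 6 genes in each liver, on an axis that starts at 0 for each gene. Points are mice with their numbers, Con in blue and Exe in red, and black bars are the mean and SD of 6 mice; Jchain runs from 0.56 to 1.47 FPKM in Con and from 1.34 to 2.39 FPKM in Exe mice, and Exe 5 is the highest mouse for Mzb1, Cd79a and Ms4a1.

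Pigr was an abundant liver transcript with little spread between mice. In Con mice it was listed at 336.29, 349.21, 335.36, 299.42, 338.85 and 321.77 FPKM, and in Exe mice at 349.64, 408.44, 395.96, 334.20, 318.95 and 345.66 FPKM. Exe 2 and Exe 3 were high and Con 4 was low, and 3 Exe mice lay above every Con mouse, with the rest within the Con range. The mean was 330.0 ± 17.4 FPKM in the Con and 359 ± 35.5 FPKM in the Exe group. The ratio was 1.09 and the log2(FPKM + 1) difference 0.12 (SE 0.07). The coefficient of variation was 5.28% in Con and 9.89% in Exe mice. For Pigr counting error would give 0.856% and 0.821%, so that nearly all of its spread lay between mice or libraries.

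Mzb1 was below 1 FPKM in every mouse and was not tested. It was listed at 0.45, 0.71, 0.53, 0.35, 0.27 and 0.36 FPKM in Con mice and at 0.53, 0.64, 0.54, 0.72, 0.97 and 0.54 FPKM in Exe mice. Exe 5 was the highest and Con 5 the lowest, and the groups overlapped between 0.53 and 0.71 FPKM. The mean was 0.445 ± 0.158 FPKM in Con and 0.657 ± 0.171 FPKM in Exe mice, a ratio of 1.48 that became 1.33 without Exe 5 and 1.68 without Con 2. Con 5, the Con mouse with the most Jchain, had the least Mzb1. The Mzb1 spread of 35.4% and 26% was below the 48.1% and 39.6% that counting error from the estimated fragments would give. The cause of this was not tested.

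Both chains of the B cell receptor had overlapping groups. Cd79a was listed at 0.94, 1.39, 1.6, 2.76, 1.79 and 1.1 FPKM in Con mice and at 1.85, 1.34, 1.40, 1.65, 3.29 and 2.18 FPKM in Exe mice. Con 4 and Exe 5 were the high mice of their groups, and Exe 5 alone lay above every Con mouse. The mean of Cd79a was 1.6 ± 0.650 FPKM in Con and 1.95 ± 0.724 FPKM in Exe mice, a ratio of 1.22. Without Exe 5 this ratio was 1.05, and without Con 4 it was 1.43.

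Cd79b was listed at 0.84, 0.83, 0.58, 0.70, 1.25 and 0.60 FPKM in Con mice and at 0.82, 0.66, 1.54, 0.84, 1.34 and 1.01 FPKM in Exe mice. Con 5 was the high Con mouse, and Exe 3 and Exe 5 lay above it. The mean of Cd79b was 0.800 ± 0.246 FPKM in Con and 1.03 ± 0.339 FPKM in Exe mice, a ratio of 1.29, between 1.17 without Exe 3 and 1.46 without Con 5. The chains pair one to one in the receptor. Cd79a over Cd79b was 2.12 ± 1.05 in Con mice and 1.96 ± 0.546 in Exe mice, and ran from 0.909 in Exe 3 to 3.94 in Con 4.

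Ms4a1 was the lowest of the 6 genes. It was listed at 0, 0.08, 0.33, 0.17, 0.34 and 0.09 FPKM in Con mice and at 0.13, 0.28, 0.17, 0.13, 0.48 and 0.15 FPKM in Exe mice. Exe 5 was again the highest, and the other Exe mice lay within the Con range. The mean was 0.168 ± 0.140 FPKM in Con and 0.223 ± 0.138 FPKM in Exe mice. The ratio was 1.33, and it was 1.02 without Exe 5 and 1.67 without Con 5. For Ms4a1 the coefficient of variation was 83.1% in Con and 61.6% in Exe mice, against 42.4% and 36.8% for counting error, and the difference of the means was smaller than either SD.

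**Figure D2:**
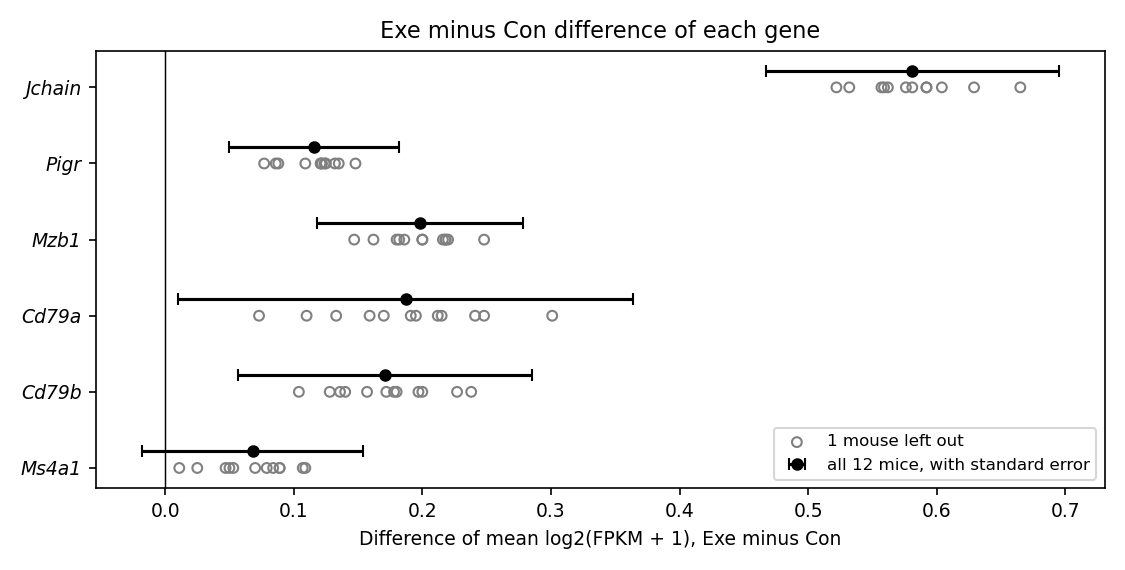
Difference of mean log2(FPKM + 1), Exe minus Con, for the 6 genes on a linear axis. Filled points are all 12 mice with the standard error of the limma fit without a filter, and open circles leave out 1 mouse each; all circles lie above 0, those of Jchain between 0.52 and 0.67 and those of Ms4a1 from 0.01.

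The mean of all 6 genes was higher in Exe mice, and among the genes tested 57.5% had a difference above 0. Jchain was then set against the B cell genes within each mouse. The sum of Cd79a, Cd79b and Ms4a1 was 2.56 ± 0.786 FPKM in the Con and 3.21 ± 1.0 FPKM in the Exe group, between 1.78 and 3.63 FPKM and between 2.28 and 5.11 FPKM. Jchain over this sum was 0.352 ± 0.110 in Con mice and 0.591 ± 0.184 in Exe mice. It was highest in Exe 1 at 0.854 and lowest in Con 4 at 0.196, and 4 Exe mice lay above every Con mouse. Since Jchain was selected on results of these same mice, this ratio is a description and lends no support to a difference. In Exe 5, the mouse with the highest sum, it was 0.354, within the Con range. Jchain over Mzb1 was 2.30 ± 1.6 in Con and 2.87 ± 0.999 in Exe mice, with Con 2 lowest at 0.789 and Con 5 highest at 5.44. Because these are whole livers, a different number of cells of a type and a different amount of RNA per cell cannot be told apart.

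Pairs of the 6 genes were compared over mice. Of 15 pairs, 0 passed an adjusted p of 0.05, and 1 passed an unadjusted p of 0.05 (permutation test of Pearson's r, two-sided, 12 mice). This pair was Cd79a and Ms4a1, with r = 0.613 (p = 0.0337, adjusted p = 0.490, permutation test) and Spearman's rho = 0.554 (p = 0.0660, permutation test). Within Con mice r was 0.547 (exact permutation p = 0.264) and rho 0.771 (exact permutation p = 0.103). Within Exe mice r was 0.636 (exact permutation p = 0.181) but rho was 0.058 (exact permutation p = 0.933). Without Exe 5 and Con 4 r was 0.468 (permutation p = 0.172), and without Exe 5 alone it was 0.36. Jchain and Mzb1 had r = 0.310 and rho = 0.337 (permutation p = 0.325 for r and 0.280 for rho, adjusted p = 0.490 and 0.633), but within groups r was -0.63 in Con mice (exact permutation p = 0.179) and -0.14 in Exe mice (exact permutation p = 0.764). Jchain and Pigr had r = 0.337 (permutation p = 0.290, adjusted p = 0.490) and rho = 0.301 (permutation p = 0.344), with 0.194 within Con mice and -0.41 within Exe mice.

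**Figure D3:**
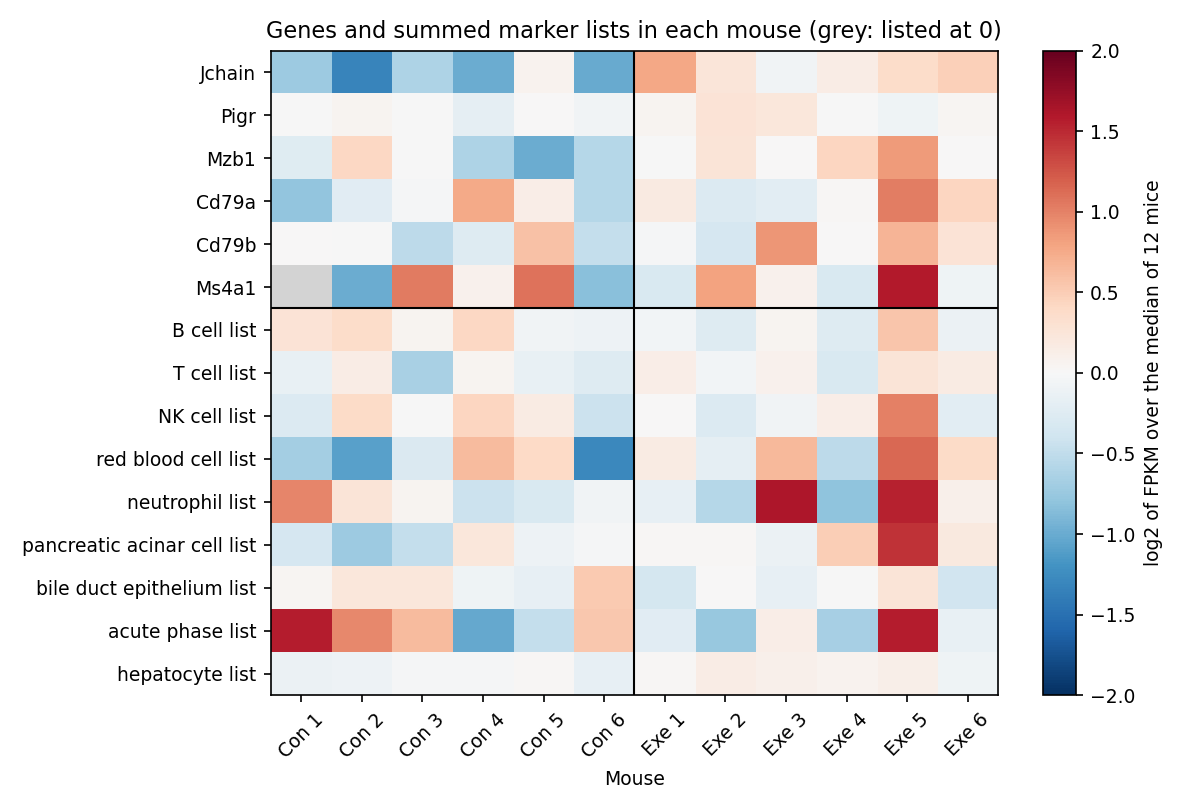
log2 of FPKM over the median of 12 mice for the 6 genes and for the summed FPKM of 9 marker lists, mice in columns and Con left of the line. Red is above and blue below the median and grey is listed at 0; in Exe 5 the red blood cell list was at 2.51 times and Cd79a at 2.06 times the median of the other mice, and Jchain at 1.35 times.

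Exe 5 stood apart in several marker lists, and this mouse had the highest value of Mzb1, Cd79a and Ms4a1. Over all genes tested 11.6% were highest in Exe 5, and so were 10.6% of genes with a mean below 1 FPKM. This held for 12 of 32 genes of the B cell list (37.5%), 6 of 16 of the T cell list (37.5%), 8 of 12 of the red blood cell list (66.7%), 17 of 22 of the pancreatic acinar list (77.3%) and 6 of 22 of the plasma cell list (27.3%). It held for 0 of 12 intestinal and 0 of 12 sinusoidal endothelial genes, 3 of 26 transcytosis genes (11.5%), 3 of 20 bile duct genes (15%) and 3 of 17 genes of other antibody receptors (17.6%). Of the remaining lists, the share was between 21.4% for Kupffer cells and 36.4% for NK cells and B cell receptor signalling, apart from Vpreb1, the single immunoglobulin gene listed, which was not highest there. Among tested genes alone it was 4 of 8 for the B cell list and 3 of 15 for the plasma cell list. Against the median of the other 11 mice, Exe 5 was at 1.53 times for the B cell list, 1.24 times for T cells, 2.02 times for NK cells and 3.29 times for acute phase genes. Among the 6 genes it was at 3.20 times for Ms4a1, 2.06 times for Cd79a, 1.83 times for Mzb1, 1.61 times for Cd79b, 1.35 times for Jchain and 0.941 times for Pigr. Without Exe 5 the Jchain ratio was 2.05 as before.

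The 6 genes were also compared with marker lists of other cells over mice. After perfusion the red blood cell list held a total of 242.41 to 912.33 FPKM in the Con and of 409.39 to 1302.24 FPKM in the Exe group. Of 48 relations between the 6 genes and 8 marker lists, 0 passed an adjusted p of 0.05. The strongest was Cd79a with red blood cells, with r = 0.786 (permutation p = 0.00246, adjusted p = 0.118) and rho = 0.741 (permutation p = 0.00836, adjusted p = 0.201). Within Con mice r was 0.838 (exact permutation p = 0.0264), within Exe mice 0.678 (exact permutation p = 0.135), and without Exe 5 and Con 4 it was 0.633 (permutation p = 0.0498). On the FPKM scale r was 0.835, past the adjusted threshold, and without Exe 3 it was 0.886, also past it. With the same list r was 0.649 for Cd79b (permutation p = 0.0233), 0.631 for Ms4a1 (permutation p = 0.0272), 0.562 for Jchain (permutation p = 0.0597), 0.140 for Mzb1 and -0.01 for Pigr. Without the 2 farthest mice it was 0.417 for Cd79b (permutation p = 0.231), 0.392 for Ms4a1 (permutation p = 0.267) and 0.495 for Jchain (permutation p = 0.143). Other lists had relations of like size. For Cd79a with pancreatic acinar genes r was 0.724 (permutation p = 0.00793), and without Exe 5 and Con 4 it was 0.373. For Cd79b with neutrophils it was 0.652 (permutation p = 0.0203), and without Exe 3 and Exe 5 it was 0.0467. For Jchain it was -0.62 with bile duct genes (permutation p = 0.0303) and 0.592 with hepatocyte genes (permutation p = 0.0449), and for Ms4a1 0.624 with hepatocyte genes (permutation p = 0.0312). Within groups the sign of Jchain with hepatocyte genes differed, at 0.656 in Con and -0.552 in Exe mice (exact permutation p = 0.133 and 0.256). Jchain with bile duct genes was at -0.553 and -0.42, and with red blood cells at 0.556 and 0.0502. The Jchain values over 12 mice thus include the difference between groups. Apart from Mzb1 and Pigr, the permutation adjusted p of the relations named here was between 0.118 and 0.315. The part of blood cells in these levels was not tested.

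Markers of plasma cells differed widely in level. Sdc1, the syndecan CD138 that hepatocytes also carry, averaged 75.1 FPKM in Con and 74.6 FPKM in Exe mice, Cd38, an ectoenzyme of many immune cells, 4.45 and 4.47 FPKM, and Derl3, of endoplasmic reticulum degradation, 3.32 and 2.07 FPKM. The SD of Derl3 was 4.38 FPKM in Con and 1.2 FPKM in Exe mice. Con 1 was highest at 12.06 FPKM and weighed on the Con mean, and the groups overlapped (from 0.74 FPKM in Con and 0.71 to 3.61 FPKM in Exe mice). The following 6 genes were each below 0.5 FPKM in every mouse. Prdm1, the regulator that drives plasma cell differentiation, averaged 0.102 FPKM in Con and 0.0883 FPKM in Exe mice. Irf4, a factor plasma cells depend on, averaged 0.1 and 0.137 FPKM, and Pou2af1, a B lineage coactivator, 0.235 and 0.248 FPKM. Tnfrsf17, the BCMA receptor of plasma cells, was listed at 0 in 9 of 12 mice. The cytokine receptor gene Tnfrsf13b averaged 0.172 and 0.162 FPKM, and the surface receptor gene Slamf7 0.133 and 0.167 FPKM. None of these 6 passed the filter, and their groups overlapped. Of 20 immunoglobulin genes looked for, 1 was among the genes listed: Vpreb1, part of the surrogate light chain, was between 0 and 0.34 FPKM. The other immunoglobulin genes were not analysed here.

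Secretory genes of the plasma cell list, which liver cells also express, were abundant. Of the 22 list genes in the files, 15 were tested, 8 had higher and 7 lower means in Exe mice, and the median log2(FPKM + 1) difference was 0.09, against 0.02 over all genes. At an unadjusted p of 0.05, 2 were higher and 0 lower, against 4.27% and 1.94% of all genes, and 0 passed the adjusted threshold. Without Exe 5 or without Exe 6, 1 passed the unadjusted p, against 8.89% and 5.05% of all genes in either direction. Edem1, which directs misfolded glycoproteins to degradation, was at 24.83 to 27.49 FPKM in Con and 27.29 to 32.36 FPKM in Exe mice, with 5 Exe mice above every Con mouse. Its log2(FPKM + 1) difference was 0.19 (SE 0.05, limma adjusted p = 0.657). Pdia4, a protein disulfide isomerase, averaged 76.8 ± 5.31 FPKM in Con and 89.1 ± 10.7 FPKM in Exe mice (limma adjusted p = 0.793), with 4 Exe mice above every Con mouse. Xbp1, the unfolded protein response factor that plasma cells need, was at 120.0 ± 35.5 and 133 ± 29.0 FPKM, and Txndc5, another isomerase, at 76.3 ± 5.97 and 81.7 ± 8.90 FPKM.

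Most other B cell genes were low. Of the 32 genes of the B cell list, 24 had a mean below 1 FPKM and 8 were tested, with 3 higher and 5 lower in Exe mice, 0 past an unadjusted p and a median log2(FPKM + 1) difference of -0.14. Among the most abundant, Cd52 (22.8 ± 5.76 and 18.8 ± 5.56 FPKM), Ly86 (6.80 ± 1.29 and 5.95 ± 1.88 FPKM) and Cd72 (3.81 ± 1.13 and 3.31 ± 1.34 FPKM) are membrane or membrane-bound proteins that are not all B cell specific. Of 15 tested genes of B cell receptor signalling, 3 were higher and 12 lower, 0 past an unadjusted p. Without Exe 5, 4 of these 15 were lower at that threshold, namely Pik3ap1, Vav1, Inpp5d and Lcp2. Of the B cell list, 3 of 8 tested genes were then lower. In that run 8.89% of all genes passed in either direction, of which 60.1% were higher, and 0 passed the adjusted threshold. The most abundant genes of the B cell receptor signalling list were Cd81, Pik3ap1 and Lyn. Cd81, of the coreceptor complex, was at 143 ± 5.06 and 137 ± 7.93 FPKM. The adaptor gene Pik3ap1 was at 16.9 ± 2.02 and 14.4 ± 2.71 FPKM, and the kinase gene Lyn at 9.04 ± 0.321 and 8.97 ± 0.969 FPKM.

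Genes that regulate or carry the polymeric Ig receptor were described in the same way. Of 20 tested regulators 10 were higher and 10 lower. At an unadjusted p 1 was lower and 0 higher, against 1.94% lower and 4.27% higher of all genes. Without Exe 4, Exe 5 or Con 6 the count was 2, against 7.13%, 8.89% and 5.19% of all genes in either direction. With all mice the gene was Ltbr, the lymphotoxin beta receptor, at 58.9 ± 2.95 FPKM in Con and 50.2 ± 4.83 FPKM in Exe mice, with 5 Exe mice below every Con mouse. Its log2(FPKM + 1) difference was -0.23 (SE 0.06, limma adjusted p = 0.708). Tnfrsf1a, the TNF receptor, was at 40.2 ± 3.79 and 37.6 ± 6.71 FPKM, and Usf2, of the USF family named above, at 29.4 ± 2.52 and 29.8 ± 3.71 FPKM. Of 20 tested transcytosis genes 15 were higher and 5 lower, with 0 past an unadjusted p and a median of 0.03 on the log2 scale. Egfr, the epidermal growth factor receptor, was at 149 ± 7.58 and 161 ± 19.2 FPKM, and the retromer gene Vps35 at 23.8 ± 1.69 and 24.2 ± 1.62 FPKM.

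Among other receptors for IgA and other antibodies, 14 genes were tested, 6 higher and 8 lower. At an unadjusted p 1 was lower and 0 higher, against 1.94% lower and 4.27% higher of all genes. The count past it was 0 with the replicate block and without Con 1, Con 2, Exe 1 or Exe 2. Without Exe 5 it was 3 (1 higher and 2 lower), against 8.89% of all genes in either direction. Fcgr3, an Fc receptor for IgG on myeloid cells, was at 7.45 ± 1.01 FPKM in Con and 5.88 ± 1.34 FPKM in Exe mice (log2 difference -0.31, SE 0.13, limma adjusted p = 0.793). B2m, the light chain of the neonatal Fc receptor and of MHC class I, was at 2050 ± 155 and 2080 ± 143 FPKM. The asialoglycoprotein receptor genes, whose product clears glycoproteins including IgA, were at 437 ± 26 and 455 ± 44.5 FPKM for Asgr1 and at 147 ± 11 and 160.0 ± 19.4 FPKM for Asgr2. Of 6 tested signals for IgA class switching or homing, 2 were higher and 4 lower, with 0 past an unadjusted p. Cxcl12, a chemokine for plasma cells, was at 119 ± 12.6 and 121 ± 19.7 FPKM, Tgfb1, a class switch signal for IgA, at 4.45 ± 0.905 and 4.07 ± 0.970 FPKM, and the adhesion gene Vcam1 at 3.57 ± 0.668 and 2.81 ± 1.23 FPKM.

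Over all 19 lists 172 genes were tested, of which 6 were higher and 4 lower at an unadjusted p of 0.05 (5.81%), against 6.21% of all genes, and 0 passed the adjusted threshold. Without Exe 5 the numbers were 5 higher and 23 lower, against 8.89% of all genes in either direction, of which 60.1% were higher. Among the genes lower without Exe 5 were Cd52, Ly86 and Cd180 of the B cell list and Vcam1, with limma adjusted p from 0.333 to 0.543. Edem1 remained past the unadjusted p without Exe 5 (limma adjusted p = 0.507), and Pdia4 did not. Without Con 4, 16 of the 172 list genes passed, against 7.54% of all genes, and without Con 2, 6 passed, against 5.76%. Hepatocyte markers were high in every mouse, with summed FPKM of 107960 to 122303 in Con and 113784 to 133315 in Exe mice. Summed FPKM over all genes were between 735200 and 820107, and Spearman's rho between any pair of mice was between 0.981 and 0.987. All genes of the Kupffer cell list had lower means in Exe mice, 14 of 14, where 57.5% of all genes tested had a difference above 0. Of these 14 genes 0 passed an unadjusted p, and 6 passed it without Exe 5 (Cd5l, Timd4, Marco, Csf1r, Cd68 and Folr2). At that threshold and with all mice the globin gene Hbb-bs was higher among 6 tested red blood cell genes, Alb and Cps1 were higher and Tat and Ambp lower among 16 hepatocyte genes, and Crp was higher among 13 acute phase genes. The list counts past it were 0 for 12 sinusoidal endothelial, 7 bile duct, 3 intestinal, 3 neutrophil, 1 T cell, 1 NK cell and 1 pancreatic acinar gene tested.

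**Figure D4:**
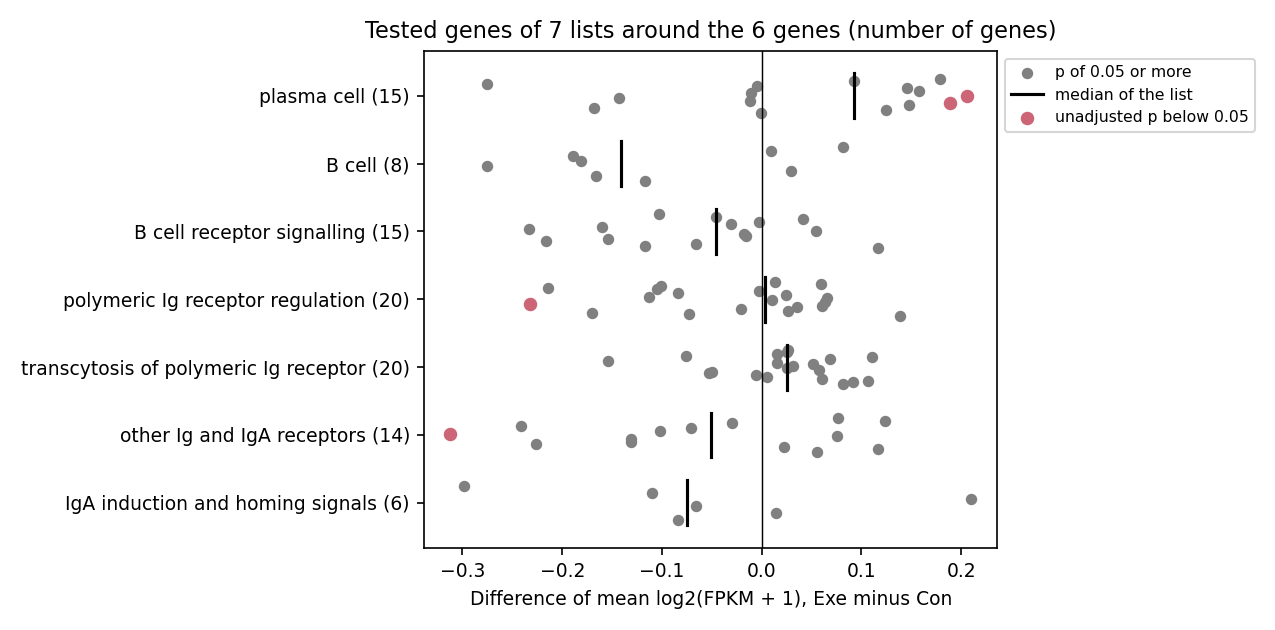
Difference of mean log2(FPKM + 1), Exe minus Con, of each tested gene in 7 lists, with the number of genes in brackets. Points are genes, red where the unadjusted limma p is below 0.05, and black bars are medians; the plasma cell median is 0.09, the B cell median is -0.14, and Edem1, Pdia4, Ltbr and Fcgr3 are the red points.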

How the data were processed

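RNA was sequenced on a DNBseq platform from 12 livers, 6 per group. After filtering on read quality, the authors aligned with HISAT to GRCm39, and they deposited FPKM per gene with 2 decimals. The submitters' processing notes also list Bowtie2 and mm10. The tool and annotation behind the FPKM are not given in the sources used here. Outlying samples may have been left out before deposit, since the study's methods name a principal component step for this. Depth in reads is unknown, and p-values measure the spread between mice.

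The 6 genes and the 19 gene lists were chosen with earlier results of these data known. FPKM are not counts, so limma 3.58.1 (R 4.3.3; lmFit, and eBayes with a trend) was run on log2(FPKM + 1), which understates changes of low genes, for 10241 genes with at least 1 FPKM in at least 6 mice. Differences of Mzb1, Cd79b and Ms4a1 come from a fit without this filter. The fit was tested on simulated data. Named were the 6 genes, the list genes past an unadjusted p of 0.05, the 3 most abundant genes of a list, the 5 nearest genes by correlation, and abundant markers in mice that stand apart, except for some that are not reported here. Cd180 and plasma cell markers outside this rule were added after their values were seen. Correlations used log2 values and 100000 permutations, or all 720 orders within a group. Other steps ran in Python 3.11.15 (scipy 1.17.1, pandas 2.3.3, numpy 2.4.6; figures with matplotlib 3.10.9). Gene IDs were matched to RefSeq (GRCm38.p6), 16710 of 16821 and all 6 genes, 3 of them with a promoter. Fragments were estimated from FPKM steps and GENCODE transcript lengths. Alternatives were other scalings, filters and pseudocounts, a replicate block, and each mouse left out.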

Additional observations from a re-analysis of the deposited data

Results flagged for a closer look

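None of the 6 genes had a mouse far from the rest of its group by Dixon's ratio (95% critical value for 6 mice), in 12 sets of values. Of 38 sets of summed marker lists, 6 did, and chance flags about 1 in 20 groups, which is 2.5 of all 50 sets. In Exe 5 the B cell list summed to 66.68 FPKM (ratio 0.687), the list of polymeric Ig receptor regulators to 335.01 FPKM (0.655), the NK cell list to 8.23 FPKM (0.775), the pancreatic acinar list to 39.83 FPKM (0.736) and the acute phase list to 40149.53 FPKM (0.790). In Con 1 the neutrophil list summed to 36.39 FPKM (0.629). By the mean of log2 values in place of the sum, the ratio was 0.612 for the B cell list and 0.509 for the acute phase list in Exe 5 and 0.497 for neutrophils in Con 1, all below the critical value. The bile duct list in Con mice (0.789), the pancreatic acinar list in Con mice (0.826) and the list of IgA induction signals in Exe mice (0.705) were then above it, so that 6 sets stood apart either way but 3 of them differed.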

How the results depend on the processing

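Of 666 values under alternatives, 593 kept their direction and stayed near the value or count given, 71 moved, 2 passed a threshold that they had missed and 0 changed sign. The difference of each of the 6 genes stayed above 0 in every alternative that held the gene, which was 18 to 20 per gene. With at least 1 FPKM required in all mice, only Pigr of the 6 was left. The genes were selected on these same mice, so a sign that holds is a description. With a pseudocount of 0.1 the log2 difference was 0.995 for Jchain, 0.494 for Mzb1 and 0.362 for Ms4a1, and as the log2 ratio of group means it was 1.038, 0.561 and 0.408, since the pseudocount of 1 compresses low values. Without a filter 1 gene, D630003M21Rik, passed the adjusted p by limma (0.0476; log2 difference -0.22); it was named after its value was seen. With 1 mouse left out, genes past the unadjusted p numbered 418 (without Exe 2) to 910 (without Exe 5), list genes 6 to 28, and relations with marker lists past the adjusted p 0 to 1. On the FPKM scale 1 relation passed. Mice share replicate numbers between groups, but deviations of same-numbered mice correlated between -0.48 and 0.17, so no pairing by number was seen. This cannot exclude one, since the labels do not say what the numbers stand for. With the replicate block 566 genes passed the unadjusted p, 0 the adjusted p, and 11 list genes the unadjusted p. The Jchain difference was again 0.58, but the block could not change it, since each replicate number holds 1 mouse per group. FPKM of Mzb1 and Ms4a1 rest on about 5 fragments per mouse, which limits what can be read from them.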

Other observations

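The genes whose log2(FPKM + 1) was most like that of Jchain over the 12 mice, by Pearson's r among the genes that passed the filter, were Serp1 (0.851), Snd1 (0.848), Gm14288 (0.848), Srp54b (0.847) and Ssr2 (0.829). For Pigr they were Znrd2 (0.896), Rbl2 (0.857), Serpina1b (0.850), Trmu (0.850) and Tfr2 (0.834). For Mzb1 they were Papolg (0.888), Minpp1 (0.836), Calu (0.833), Tut1 (0.827) and Strn (0.824). For Cd79a they were Gbp6 (0.907), Gbp10 (0.903), Vps54 (0.862), Sergef (0.828) and Hprt (0.818). For Cd79b they were Rufy1 (0.839), Mrps18c (0.798), Ctla2a (0.783), Pcolce2 (0.780) and Fabp7 (0.768), and for Ms4a1 Pigm (0.893), Lcp1 (0.887), Sppl2a (0.882), Selenos (0.867) and Klhl12 (0.850). These are the highest of 10240 or more values each, and the Jchain values include the difference between groups.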
